A study of Mus musculus with 4 samples.

Results

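The genes described here encode the proteins of the cytosolic ribosome. They were taken by symbol (Rpl or Rps followed by a digit, Rplp0 to Rplp2, and Rpsa), without the Rps6k kinases and without symbols that carry -ps, which left 86 of the 32285 gene rows. By symbol, 34 of them belong to the small subunit and 52 to the large subunit. Among the 86 are copies that carry a suffix after the name of an older gene, such as Rps27l beside Rps27, the retrocopy Rps27rt, and Rps19bp1, which binds Rps19 and is not itself a ribosomal protein. Without these, 77 genes remained, and they are called the core genes below. The choice used symbols and no measured value.

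A ribosome joins a small subunit, which reads the messenger RNA, to a large subunit, which forms the peptide bonds. Nearly every ribosomal protein is needed in a single copy per ribosome, and most of these messenger RNAs begin with a pyrimidine tract that lets the cell raise or lower their translation together. Lymphocytes that have not met antigen keep many of these transcripts, while neutrophils leave the bone marrow as cells with little RNA and little new protein synthesis.

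The study compared Plaur–/– mice, which lack the urokinase plasminogen activator receptor, with wild type (WT) mice, both labelled strain C57B6/J. The labels give 8 mice per genotype, sensitized with LPS and ovalbumin on days 0 and 7 and challenged with ovalbumin aerosol on day 14, so no group lacks the allergen. Lungs were minced and digested, and CD45.2+ cells were sorted. The protocol calls these leukocytes circulating, while the cell type label reads as a whole lung lysate. One 10x Genomics 3′ RNA library per genotype was deposited, with about 16000 cells loaded for 10000 emulsions. Since each genotype has 1 library there is no test here. Mice cannot be told apart, and a difference between genotypes cannot be told apart from a difference between libraries. Intervals are at 95% and cover counting error only.

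The KO-labelled library held 10102 barcodes and 47442215 gene UMIs (unique molecules counted), and the WT-labelled library 9024 barcodes and 42913843 gene UMIs. After filters 9587 KO-labelled and 8683 WT-labelled cells were kept, with medians of 2776 and 3208 UMIs per cell. The libraries shared 16 barcodes. Plaur had 456 counts per 1000000 gene UMIs (CPM) in the KO-labelled library and 526 CPM in the WT-labelled library. A 3′ count outside a deleted stretch does not check a genotype, and the sources used here do not name that stretch. The groups are therefore called by their labels. Cells were grouped by clustering without the ribosomal protein genes, and each class name stands for clusters that resemble that cell type by at least 3 markers. Cells that resembled lung epithelium (19 KO-labelled and 4 WT-labelled) or endothelium and fibroblasts (16 in each library) were rare.

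The 86 genes took 13.3% of all UMIs in the KO-labelled library and 14.0% in the WT-labelled library. Per cell, the median was 11.7% in the KO-labelled library and 13.1% in the other. A 3′ library counts molecules and not fragments, so levels of different genes can be set side by side without a correction for length. Rps24, a small subunit protein, had the most UMIs, with 4026 CPM in the KO-labelled and 4178 CPM in the WT-labelled library. Rpl13, of the large subunit, had 3312 and 3495 CPM, and Rpl23 3020 and 3274 CPM, in the same order of libraries. Rps27a, which is made as a fusion with ubiquitin, had 3173 CPM in the KO-labelled and 2761 CPM in the WT-labelled library, and Rps20 had 2756 and 2936 CPM. Of these 5 genes only Rps27a was higher in the KO-labelled library. Neutrophils were 3315 of the 9587 KO-labelled and 2273 of the 8683 WT-labelled cells. The part of this mix in the library values was not tested.

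The share of UMIs on these genes differed widely between classes, and the order was nearly the same in both libraries. T cell cluster 8, which was led by Igfbp4, Lef1 and Tcf7, stood highest, with 30.7% of UMIs in the 299 KO-labelled and 30.4% in the 302 WT-labelled cells. T cell cluster 12, led by Dapl1 and Cd8b1, followed with 28.9% in KO-labelled and 27.01% in WT-labelled cells. Lef1 and Tcf7 encode transcription factors of T cells that have not been activated. The other T cell clusters stood much lower. Cluster 21, with gamma-delta receptor genes, had 17.5% in KO-labelled and 18.2% in WT-labelled cells. Cluster 26, with Cd8a, Lag3 and Pdcd1, had 16.9% and 17.2%. Cluster 10, led by Foxp3, the transcription factor of regulatory T cells, had 16.5% in KO-labelled and 17.4% in WT-labelled cells.

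B cells had 19.6% in the 1124 KO-labelled and 20.005% in the 1495 WT-labelled cells. Within them, the cluster with Fcrl5 and Sox5 had 23.1% in KO-labelled and 24.2% in WT-labelled cells, the cluster with Fcer2a and Cr2 had 19.6% and 19.7%, and the cluster with Vpreb3 and Spib had 16.3% and 16.6%. Dendritic cells lay between 15.8% (Ccr7+ cells) and 19.0% (cDC1) in KO-labelled cells, and between 15.9% and 19.7% for the same classes in WT-labelled cells. NK cells had 15.2% in KO-labelled and 15.05% in WT-labelled cells. Group 2 innate lymphoid cells stood above them, with 18.0% and 18.4%.

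As classes, monocytes and macrophages were lower, and their clusters differed from each other by more than the libraries did. Interstitial macrophages with Gpnmb and Trem2 had 16.8% in KO-labelled and 15.2% in WT-labelled cells, against 12.2% and 11.7% for those with Ccl12 and the C1q genes. The smaller classical monocyte cluster had 16.9% in KO-labelled and 16.3% in WT-labelled cells, and the larger one 12.5% and 10.8%. Alveolar macrophages had 12.3% in KO-labelled and 11.5% in WT-labelled cells.

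Plasma cells had 9.50% in KO-labelled and 9.15% in WT-labelled cells. In them immunoglobulin genes took 34.6% of the UMIs in KO-labelled and 38.1% in WT-labelled cells. With those UMIs left out of the total, the ribosomal protein genes took 14.5% in KO-labelled and 14.8% in WT-labelled plasma cells.

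Neutrophils stood lowest, with 3.14% in the 3315 KO-labelled and 3.05% in the 2273 WT-labelled cells. The middle 80% of neutrophils ranged between 1.87% and 4.55% in the KO-labelled library and between 1.70% and 4.29% in the WT-labelled library. The same range in T cell cluster 8 was 20.7% to 37.8% and 22.4% to 36.5%, so the ranges of these classes did not overlap. In molecules, the median neutrophil carried 54 ribosomal protein UMIs in the KO-labelled and 51 in the WT-labelled library, against 1741 and 1864 in cDC1. Depth differed too, as cDC1 had medians of 9019 and 9659 UMIs in total. B cells of the cluster with Fcer2a and Cr2, at medians of 1975.5 and 2268 UMIs, carried 385.5 and 431. S100a8 and S100a9, calcium-binding proteins that fill the neutrophil cytosol, took 9.99% of neutrophil UMIs in the KO-labelled and 8.18% in the WT-labelled library. Without them the ribosomal share of neutrophils was 3.48% and 3.32%.

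**Figure D1:**
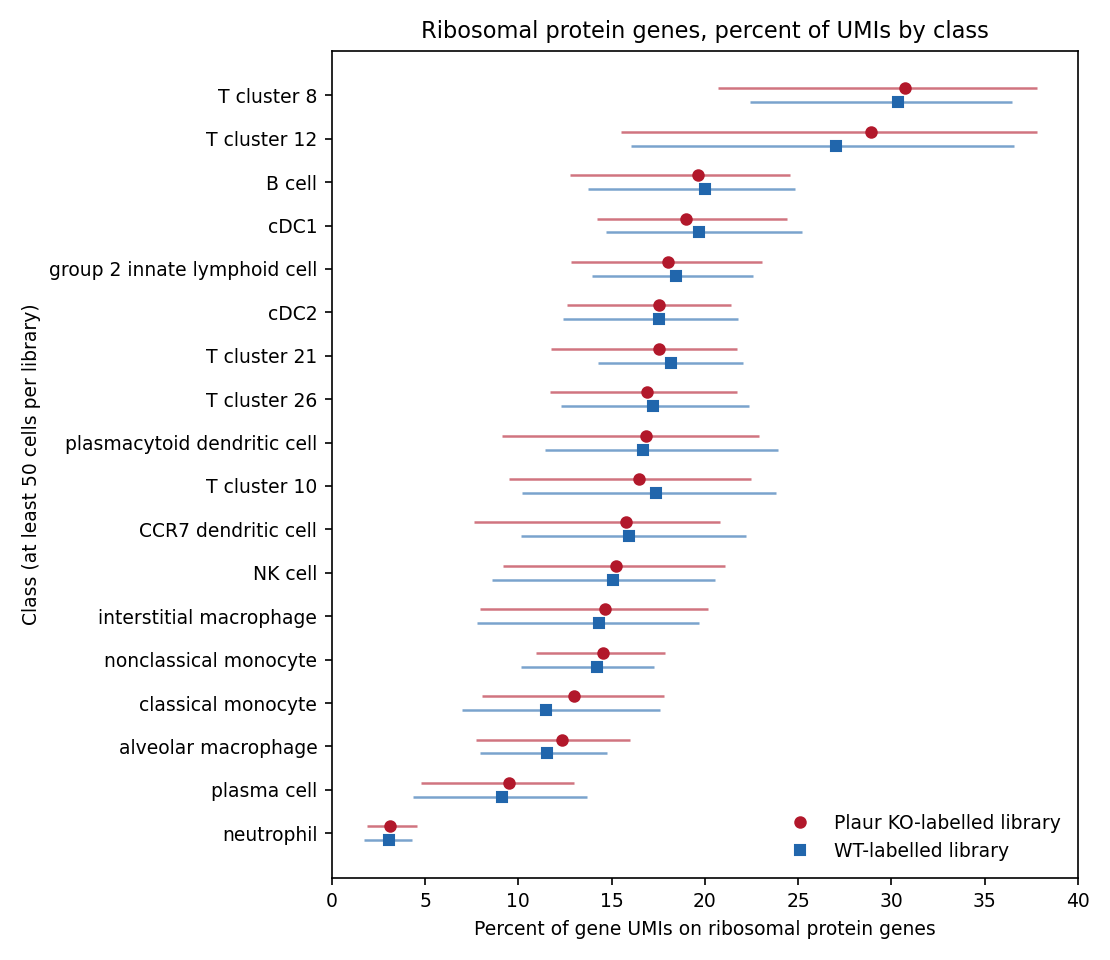
Percent of gene UMIs on the 86 ribosomal protein genes (x axis) in each class with at least 50 cells per library (y axis). Points are the pooled share in the KO-labelled (red circles) and WT-labelled (blue squares) library and lines span the 10th to 90th percentile of cells. T cell cluster 8 is at 30.7% and 30.4%, and neutrophils are at 3.14% and 3.05%.

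In the larger classes the share moved little between the libraries. As log2 of KO-labelled over WT-labelled share, the 11 classes with at least 150 cells in each library ran from -0.076 in T cell cluster 10 to 0.18 (0.17 to 0.18) in classical monocytes. Alveolar macrophages had 0.099 and T cell cluster 12 had 0.097. Neutrophils had 0.040, B cells -0.028, cDC1 -0.054 and cDC2 0.0010 (-0.0043 to 0.0064). Some smaller groups moved more. Cluster 29, which met no class name, had 18.1% in 62 KO-labelled and 12.2% in 107 WT-labelled cells, a log2 of 0.58. The few endothelial cells and fibroblasts had 0.31 and the few lung epithelial cells -0.22.

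In classical monocytes the value differed between the clusters and with thinning. The larger cluster gave a log2 of 0.21 and the smaller one 0.054. With each cell thinned to 1000 UMIs the value for the class was 0.082. The part of these measures in the difference was not tested.

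Among neutrophils the state made little difference to the share. The clusters named as rich in Retnlg, a secreted protein of neutrophils, had 3.20% in the 2160 KO-labelled and 3.15% in the 1395 WT-labelled cells. This state pools clusters 0, 1 and 2, of which only cluster 0 had Retnlg among its leading genes. The clusters led by F3, which encodes tissue factor, and by Egln3, an oxygen-sensing hydroxylase, had 2.95% in 964 KO-labelled and 2.84% in 860 WT-labelled cells. Neutrophils led by the interferon-response genes Ifit1, Ifit3 and Rsad2 had 3.04% in the 191 KO-labelled and 2.70% in the 18 WT-labelled cells. At a Leiden resolution of 0.5 in place of 1, the F3-led cells had 3.10% in the KO-labelled and 3.05% in the WT-labelled library, against 3.18% and 3.03% in Retnlg-rich cells, so the order of these states in the WT-labelled library turned round.

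Single clusters differed more than states did. Cluster 2, in which Kif23, Il1r2 and Cxcr4 were among the leading genes, had 4.09% in KO-labelled and 3.40% in WT-labelled cells, which were shallow, with medians of 1320 and 1403 UMIs. Cluster 1 had 3.23% in KO-labelled and 3.21% in WT-labelled cells at medians of 3758 and 3625 UMIs. Cluster 0, led by Retnlg and with Mmp8 and Lcn2, had 2.84% and 2.73% at 1845 and 1737 UMIs. The F3-led clusters 5 and 6 stood above cluster 0, with 2.96% and 2.94% in KO-labelled and 2.80% and 2.86% in WT-labelled cells. The share did not follow depth in one direction over these clusters.

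**Figure D2:**
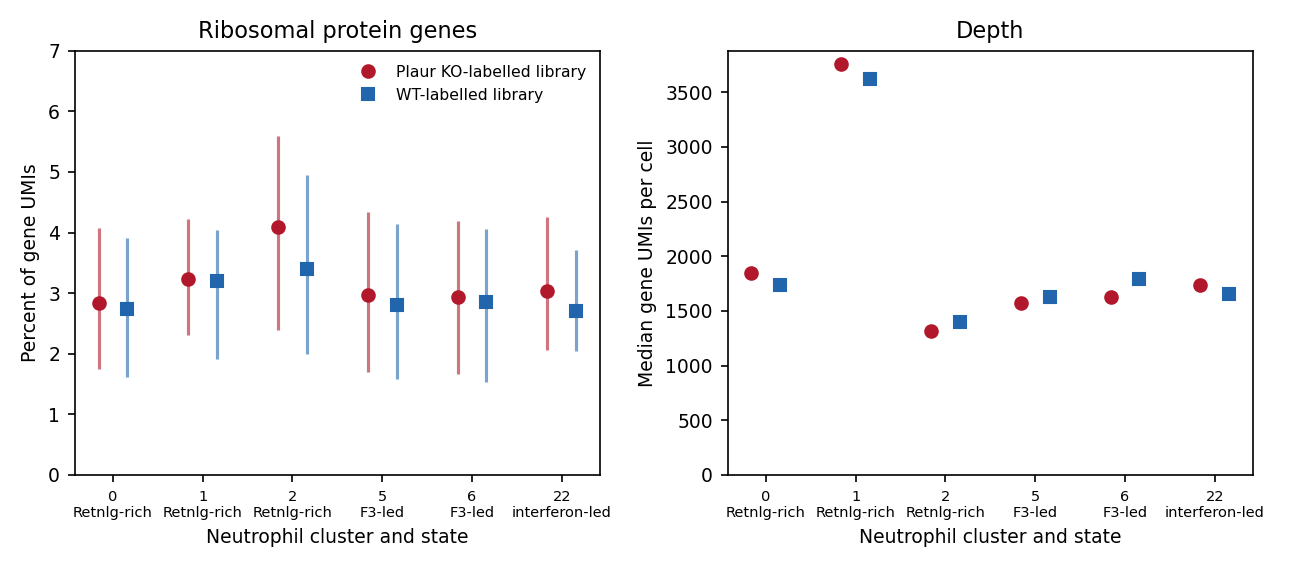
Left, percent of gene UMIs on the ribosomal protein genes in the 6 neutrophil clusters (points, pooled share; lines, 10th to 90th percentile of cells). Right, the median gene UMIs per cell in the same clusters, KO-labelled in red and WT-labelled in blue. Cluster 2 is highest, at 4.09% and 3.40%, while cluster 1 has the deepest cells.

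Between F3-led and Retnlg-rich neutrophils, the latter pooled from clusters 0, 1 and 2, 83 genes had at least 100 UMIs. Their median log2 of F3-led over Retnlg-rich CPM was -0.087 in the KO-labelled and -0.16 in the WT-labelled library, against -0.19 and -0.24 over the 5925 genes tested. Below 0 were 61 of the 83 in the KO-labelled library, where 63.3% of all genes were below 0, and 71 of the 83 in the WT-labelled library, where the background was 67.6%. At -0.5 or lower were 2 in the KO-labelled and 3 in the WT-labelled library, against 29.9% of all genes in each. At 0.5 or higher there was none in either library, against 15.4% and 11.5% of all genes.

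Rps4x, the X-linked copy of a small subunit protein, was the lowest of them in F3-led cells by the mean of both libraries. It had 89.2 CPM in F3-led against 146 CPM in Retnlg-rich KO-labelled cells, a log2 of -0.71 (-0.97 to -0.46). In WT-labelled cells it had 107 against 152 CPM, a log2 of -0.50 (-0.75 to -0.26). In the WT-labelled library Rpl3l, with -0.53 from 27 and 86 UMIs, and Rpl5, with -0.52, were lower still, but in the KO-labelled library they had 0.048 and -0.11. Rpl10a had a log2 of -0.60 in KO-labelled and -0.20 in WT-labelled cells, and Rpl6 -0.43 and -0.31. At the other end were Rpl35, with 0.41 in KO-labelled and 0.11 in WT-labelled cells, and Rps18, with 0.47 in KO-labelled and -0.044 in WT-labelled cells. For both of these the interval in WT-labelled cells included 0.

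The composition of the ribosomal protein transcripts in neutrophils differed from that in all other classes. For each core gene the share of ribosomal protein UMIs in a class was set against its median over the other 17 classes with at least 50 cells per library. In neutrophils 4 of the 77 core genes lay at least 1 log2 above that median in both libraries and 11 lay at least 1 log2 below it, while 38 stayed within 0.5. In each of the other 17 classes the count was 0 in both directions. The SD of the 77 deviations was 0.94 in KO-labelled and 0.81 in WT-labelled neutrophils, and between 0.15 and 0.26 in every other class and library.

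The genes that stood above were Rps9, Rps27a, Rps27 and Rpl37. Rps9, a small subunit protein near the decoding site, deviated most. It had 2278 CPM in KO-labelled and 2130 CPM in WT-labelled neutrophils, and medians of 2853 and 2957 CPM over the other classes. Its share of ribosomal protein UMIs was therefore 2.07 log2 above the other classes in the KO-labelled library and 2.12 in the WT-labelled library. Over the 6 neutrophil clusters Rps9 stayed at 1934 to 2639 CPM in KO-labelled and 1856 to 2431 CPM in WT-labelled cells. Rps27a had 1884 CPM in KO-labelled and 1429 CPM in WT-labelled neutrophils, with deviations of 1.67 and 1.39. Rpl37 had 1059 and 845 CPM, and Rps27 1197 and 1112 CPM. Reads of Rps27 and of its retrocopy Rps27rt may be split between the rows, and Rps27rt stood 1.59 and 1.79 log2 above.

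The genes that stood below were led by Rpl10a, Rpl3, Rpl12 and Rpsa. Rpl10a, a protein of the stalk beside the tRNA exit site, had 33.5 CPM in KO-labelled and 54.9 CPM in WT-labelled neutrophils, against medians of 1275 and 1259 CPM in the other classes. Its deviations were -2.88 and -2.12. Rpl3, which reaches towards the peptidyl transferase centre, had 33.8 CPM in KO-labelled and 50.2 CPM in WT-labelled neutrophils, against 1155 and 1220 CPM elsewhere. Rpl12, which lies at the base of the stalk that recruits elongation factors, had 39.8 and 70.2 CPM, against 1095 and 1368 CPM. Rpsa, also known as the laminin receptor, had 87.1 and 111 CPM, against 2333 and 2420 CPM. The other genes of this group were Rps20, Rps19, Rps18, Rps4x, Rpl32, Rpl36a and Rpl4, with deviations between -1.07 and -1.955.

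On the scale of all UMIs of a class, none of the core genes stood above in neutrophils, and the 4 named as high were the least reduced. Rps9 lay 0.33 log2 below the other classes' median in the KO-labelled library and 0.47 below it in the WT-labelled library, and Rps27a 0.80 and 1.13 below. Of 84 ribosomal protein genes with enough UMIs, 78 were at least 1 log2 below the median of the other classes in both libraries, against a background of 47.2% of 10884 genes. Only Rpl3l was at least 1 log2 above, against 13.3% of all genes. In T cell cluster 8, 23 of the 84 were above, against 10.1% of all genes, and 1 was below, against 15% of all genes. In bulk sums of this kind fewer transcripts per cell and more transcripts of other genes cannot be told apart.

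RNA of other cell types was measured beside these values. In neutrophils the B cell markers summed to 38.7 CPM in the KO-labelled and 57.1 CPM in the WT-labelled library, with 9 and 10 of 10 detected. All 10 T cell markers were detected, at 19.8 CPM in KO-labelled and 57.4 CPM in WT-labelled neutrophils, and all 10 NK cell markers at 30.05 and 35.3 CPM. The 13 interstitial macrophage markers summed to 66.8 CPM in KO-labelled and 213 CPM in WT-labelled neutrophils. In the KO-labelled library Cr2 and Folr2 were at 0. The 12 alveolar macrophage markers summed to 75.99 CPM in KO-labelled and 91.8 CPM in WT-labelled neutrophils. The lists of dendritic and plasma cells were higher. The 9 cDC2 markers summed to 605 CPM in KO-labelled and 827 CPM in WT-labelled neutrophils, which was 7.36% and 11.5% of their level in cDC2, and Sirpa alone gave 595 and 809 CPM of it. The 9 cDC1 markers summed to 515 CPM in KO-labelled and 603 CPM in WT-labelled neutrophils, or 9.32% and 11.6% of their level in cDC1, with Cd24a at 298 and 331 CPM. Xcr1, which defines cDC1, was at 0 in the KO-labelled library. The plasma cell markers summed to 383 and 274 CPM, of which Xbp1 gave 319 and 211 CPM. The part of these RNAs in the neutrophil values was not tested, apart from the following. Of the neutrophils, 2985 KO-labelled and 1966 WT-labelled cells had no UMI of a B, T or NK cell marker. In these the same 4 genes stood above and 15 stood below, with Rpl14, Rpl15 and Rps24 among those added. Rpl10a then had 30.4 CPM in KO-labelled and 35.6 CPM in WT-labelled cells, and Rps9 kept deviations of 2.09 and 2.21.

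**Figure D3:**
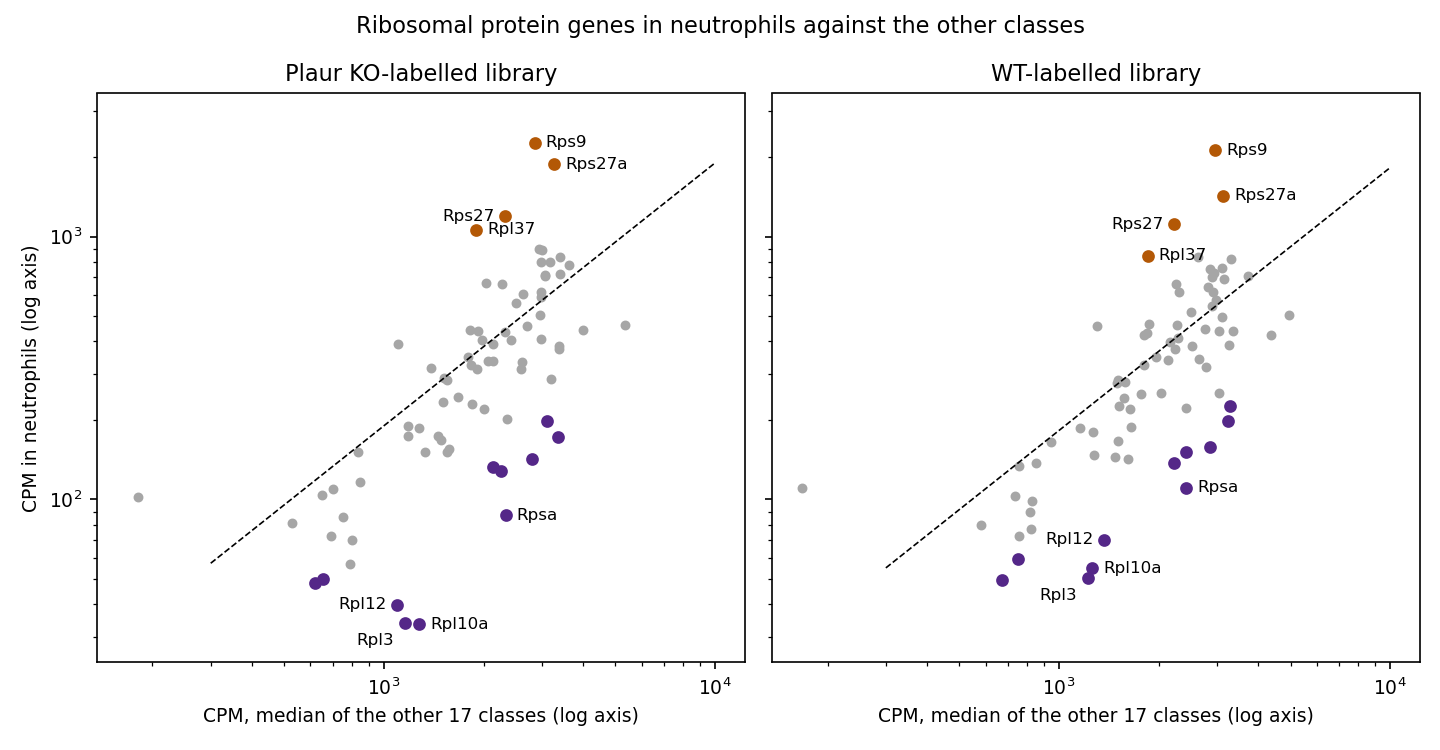
CPM in neutrophils (y, log axis) against the median CPM of the other 17 classes (x, log axis) for the core genes and Rps27rt, in the KO-labelled (left) and WT-labelled (right) library. The dashed line is the ratio of the sums over all plotted genes, orange marks the 4 core genes that stood above it by share and purple the 11 below. Rps9 lies at 2278 and 2130 CPM, while Rpl10a and Rpl3 lie at 33.5 to 54.9 CPM.

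Of the related genes outside the symbol rule, some were low in neutrophils and others were not. Fau, which encodes a ubiquitin-like protein fused to a small subunit protein, had 4811 CPM in KO-labelled and 4121 CPM in WT-labelled neutrophils, against 6433 and 6197 CPM in T cell cluster 8. Rack1, a scaffold protein on the small subunit, had 103 and 108 CPM in neutrophils, against 2073 and 2255 CPM in that cluster. A list of 18 translation factors and related genes summed to 3107 CPM in KO-labelled and 3248 CPM in WT-labelled neutrophils, against 21317 and 22092 CPM in T cell cluster 8. A list of 31 ribosome biogenesis genes summed to 325 and 394 CPM, against 1757 and 1846 CPM. The 78 mitochondrial ribosomal protein genes differed less from that cluster, with 2045 and 1959 CPM in neutrophils, against 3295 and 3093 CPM. In cDC2 they had 5054 and 4703 CPM. A list of 18 regulators of ribosome production summed to 3050 CPM in KO-labelled and 2538 CPM in WT-labelled neutrophils, against 1316 and 1368 CPM in T cell cluster 8. Group 2 innate lymphoid cells had 2684 and 2755 CPM of this list. Most of the sum in neutrophils came from Mxd1, a repressor of Myc targets, with 1983 CPM in KO-labelled and 1474 CPM in WT-labelled cells.

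The suffixed paralogues departed from the rest in the classes where they were used. To show how such a pair can differ near its start, 41 bases around an annotated RefSeq start are given. They cover Rps27 and Rps27l, Rpl22 and Rpl22l1, Rpl36a and Rpl36al, and also Rps9 and Rpl12 from the results above. Sequences are from RefSeq on GRCm38.p6, 5′ to 3′ on the gene's strand, with the start at base 21. Capitals mark the longest run of C and T that begins with C within 20 bases of the start.
Rps27 (chr3:90213628-90213668, minus strand): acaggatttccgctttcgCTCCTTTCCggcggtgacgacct
Rps27l (chr9:66946066-66946106, plus strand): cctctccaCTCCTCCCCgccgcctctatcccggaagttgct
Rpl22 (chr4:152324416-152324456, plus strand): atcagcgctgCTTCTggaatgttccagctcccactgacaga
Rpl22l1 (chr3:28805488-28805528, plus strand): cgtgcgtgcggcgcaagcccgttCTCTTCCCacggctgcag
Rpl36a (chrX:134585634-134585674, plus strand): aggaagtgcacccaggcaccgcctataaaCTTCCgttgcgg
Rpl36al (chr12:69184047-69184087, minus strand): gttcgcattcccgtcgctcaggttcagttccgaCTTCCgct
Rps9 (chr7:3704021-3704061, plus strand): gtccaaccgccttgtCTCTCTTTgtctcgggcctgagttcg
Rpl12 (chr2:32961692-32961732, plus strand): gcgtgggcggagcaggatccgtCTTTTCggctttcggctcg
The run is 9 bases long in both Rps27 and Rps27l, but lies across the start in Rps27 and ahead of it in Rps27l. A run of at least 8 bases was found in 32 of the 66 genes with a promoter entry (48.5%), against 16.6% of all 27025 genes with one. Among the core genes it was 30 of 57 (52.6%), and among the suffixed copies and Rps19bp1 2 of 9 (22.2%). On the opposite strand a run was found in 7.58% of the 66 genes and in 19.0% of all genes. Some genes have several starts, of which the one with the longest run was counted and printed. The Rps27l start shown lies inside the gene, which spans 66944624 to 66949522 on chromosome 9. The contrast with Rps27 may therefore depend on that choice of start. A match is a stretch of letters and not a measured start.

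Rps27l, which p53 activates, had the widest range over classes among values that rest on at least 20 UMIs. Its share of ribosomal protein UMIs varied by 5.06 on the log2 scale. Rpl3l, which was at 0 in several classes, has no such range over all of them. In T cell cluster 8 Rps27l had 67.3 CPM in KO-labelled and 73.7 CPM in WT-labelled cells, which was 1.17% and 1.37% of the UMIs of Rps27 and Rps27l together. In Ccr7+ dendritic cells it had 1152 and 1036 CPM, or 38.1% (36.1 to 40.04) and 34.5% (32.9 to 36.2) of the pair. Plasma cells had 38.4% in the KO-labelled and 39.3% in the WT-labelled library, and alveolar macrophages 32.0% in both. B cells were near the low end, with 3.37% in KO-labelled and 3.12% in WT-labelled cells, so the plasma and B cell intervals did not overlap. Among myeloid cells, cDC2 had 26.8% in KO-labelled and 23.5% in WT-labelled cells, interstitial macrophages 23.6% and 21.2%, and classical monocytes 16.6% and 12.8%. In these 3 classes the KO-labelled interval lay above the WT-labelled one. Within the interstitial macrophages with Gpnmb and Trem2 the intervals overlapped, at 22.7% (21.7 to 23.8) in KO-labelled and 21.04% (20.3 to 21.8) in WT-labelled cells. Within those with Ccl12 and the C1q genes they did not, at 24.98% (23.59 to 26.41) and 21.82% (20.22 to 23.48). Neutrophils had 5.19% in KO-labelled and 6.27% in WT-labelled cells. Part of the range came from Rps27 itself, which had 5670 and 5291 CPM in T cell cluster 8, against 967 and 853 CPM in plasma cells.

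Rpl36al, an autosomal copy of the X-linked Rpl36a, took over most of its pair in plasma cells. There it had 81.7% (80.3 to 83.0) in the KO-labelled and 78.6% (76.9 to 80.2) in the WT-labelled library, at 1518 and 1389 CPM. Classical monocytes followed, with 69.1% in KO-labelled and 64.0% in WT-labelled cells, and plasmacytoid dendritic cells with 63.0% in both libraries. T cell cluster 8 was lowest, with 36.1% and 35.2%. In neutrophils Rpl36al and Rpl36a were both rare, at 44.3 and 48.1 CPM in KO-labelled and 50.4 and 49.5 CPM in WT-labelled cells.

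Rpl22l1 and Rpl22, RNA-binding paralogues of which Rpl22 represses Rpl22l1 in mouse cells, varied less. Rpl22l1 made up 28.4% of the pair in KO-labelled and 26.96% in WT-labelled NK cells, and 12.9% and 13.2% in cDC1. The intervals of the libraries did not overlap in cDC2, with 13.7% (12.8 to 14.6) in KO-labelled and 16.5% (15.5 to 17.7) in WT-labelled cells. They did not overlap in plasma cells either, with 17.7% (15.97 to 19.4) in KO-labelled and 24.4% (22.1 to 26.8) in WT-labelled cells. In 1 KO-labelled and 1 WT-labelled plasma cell Rpl22l1 reached 31 and 28 UMIs. Rpl7l1, an Rpl7-like protein, stayed between 1.42% and 7.37% of its pair in every class and library, and was highest in neutrophils, with 5.43% in KO-labelled and 7.37% in WT-labelled cells.

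Rpl3l, known as the form of Rpl3 in striated muscle, was rare and was found mainly in neutrophils, monocytes and alveolar macrophages. It had 113 UMIs in neutrophils of each library, 15.1 CPM in KO-labelled and 20.9 CPM in WT-labelled cells, spread over 109 and 106 cells. Since Rpl3 was so low there, Rpl3l made up 30.9% (26.2 to 35.9) of the pair in KO-labelled and 29.4% (24.8 to 34.2) in WT-labelled neutrophils. Cells with an Rpl3l UMI were 3.29% of KO-labelled and 4.66% of WT-labelled neutrophils, at medians of 1729 and 1746 UMIs. They were 9.39% and 11.2% of alveolar macrophages, which were deeper, at medians of 6500 and 7608 UMIs. In CPM the alveolar macrophages had 15.9 in KO-labelled and 16.3 in WT-labelled cells, so these rates do not compare levels. In NK cells it was found in 0 of 470 KO-labelled and 0 of 318 WT-labelled cells, and in T cell clusters 8 and 10 and in cDC1 it was also at 0 in both libraries. In KO-labelled cDC1 a count of 0, read as at most 3 UMIs, allows an Rpl3l share of up to 0.0828% of the pair, and the upper Clopper-Pearson limit was 0.102%. Interstitial macrophages had 5 KO-labelled and 6 WT-labelled UMIs, or 1.14 and 0.94 CPM, and cDC2 had 3 and 2 UMIs. Nonclassical monocytes had 25.4 CPM in KO-labelled and 52.9 CPM in WT-labelled cells, from 11 and 13 UMIs.

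Rpl39l, an Rpl39 copy known from male germ cells, had 44 UMIs in the KO-labelled and 127 UMIs in the WT-labelled library. Of these, 17 lay in 7 KO-labelled alveolar macrophages and 88 lay in 16 WT-labelled ones, and 1 WT-labelled cell held 20 of them. Rpl10l, a germ cell copy of the X-linked Rpl10, had 2 UMIs in the KO-labelled library and 0 in the WT-labelled library. The files hold no row named Rps4l, so that pair with Rps4x was not analysed here.

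**Figure D4:**
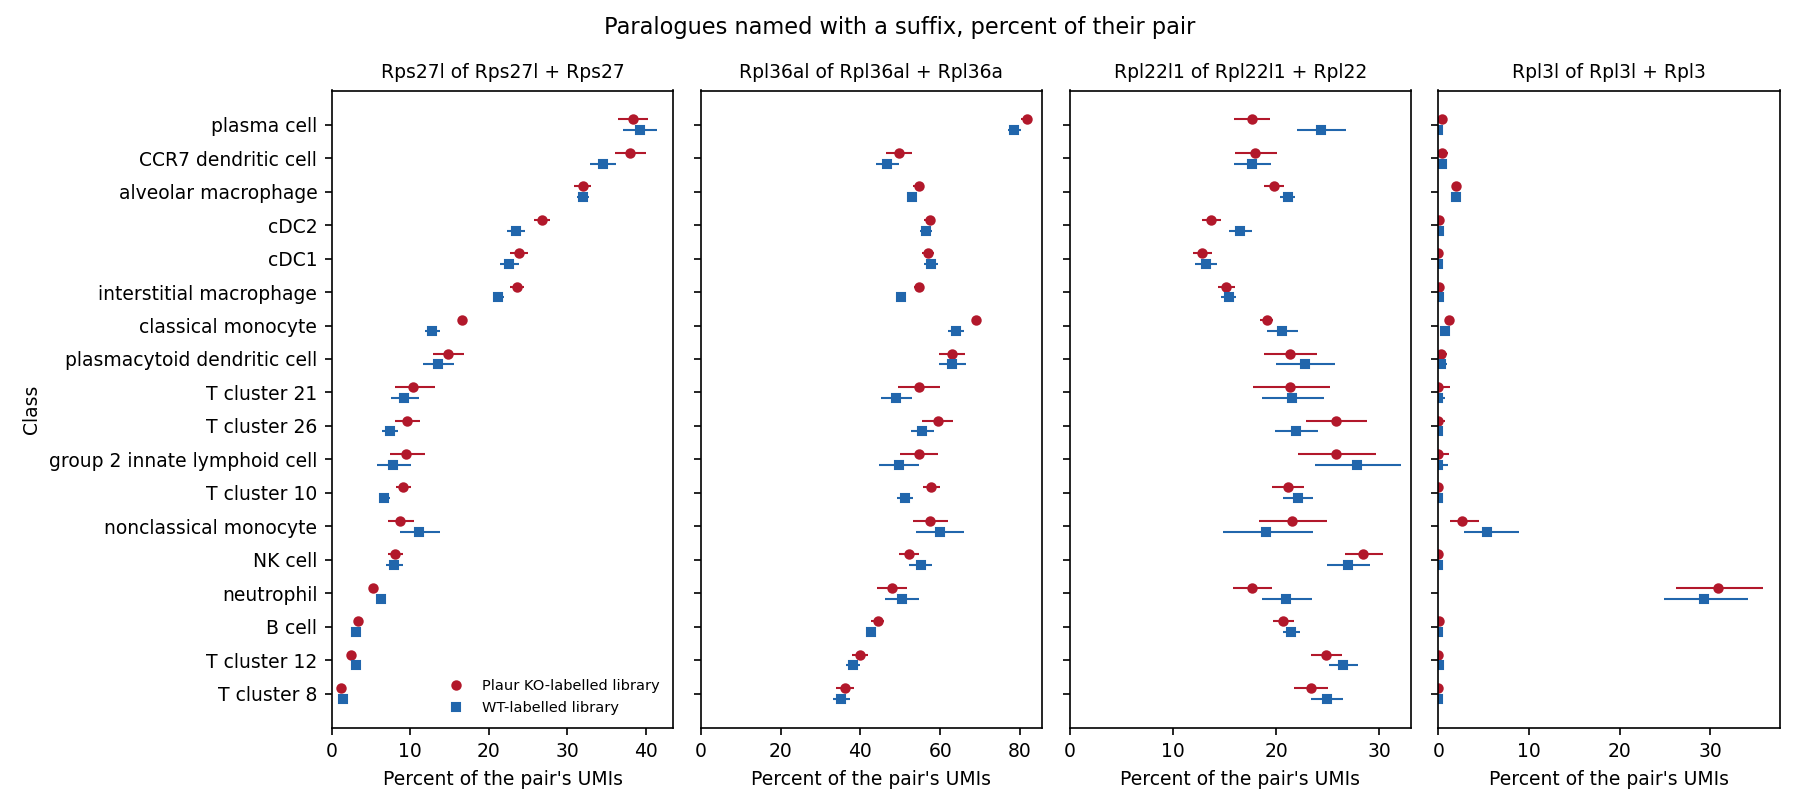
Percent of the pair's UMIs that fell on Rps27l, Rpl36al, Rpl22l1 and Rpl3l (x axes, each with its own scale) in each class (y axis), with 95% Clopper-Pearson intervals. KO-labelled cells are red circles and WT-labelled cells blue squares. Rps27l is between 1.17% in T cell cluster 8 and 39.3% in plasma cells, and Rpl3l is near 30% only in neutrophils.

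For single genes, KO-labelled over WT-labelled, few of the 86 passed a log2 of 0.5 in either direction in a main class, and in no main class was their share above that of all genes. Between 81 and 85 of the genes reached 100 UMIs over both libraries, depending on the class. In B cells none of 83 was at or past 0.5 in either direction, against 2.4% of all genes higher and 1.87% lower. There was none in NK cells (background 3.32% higher, 2.91% lower), in T cell cluster 10 (4.08% and 2.37%), cluster 12 (3.05% and 4.67%) or cluster 8 (4.02% and 2.63%). Interstitial macrophages also had none (4.25% and 5.7%), and neither did cDC2 (5.42% and 4.11%).

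In neutrophils none of 83 was higher (background 4.47%) and 4 were lower (background 8.73%). They were Rpl12 with -0.82 (-1.04 to -0.60), Rpl10a with -0.71 (-0.96 to -0.46), Rpl3 with -0.57 and Rps15 with -0.52 (-0.65 to -0.38). The first 3 of these are also among the 4 genes that led the low group of neutrophils against other classes. In neutrophils without a UMI of a B, T or NK cell marker, all 4 were inside 0.5, with Rpl12 at -0.36, Rpl10a at -0.23, Rpl3 at -0.24 and Rps15 at -0.33. The highest in neutrophils were Rps27a with 0.40 (0.36 to 0.44) and Rpl37 with 0.33 (0.27 to 0.38), which kept 0.41 and 0.31 without those cells.

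In classical monocytes 3 of 84 were higher (background 7.38%) and none was lower (background 8.94%). Scaled by the ribosomal protein UMIs in place of all UMIs, 2 were higher and 2 lower. Rpl36al had 884 CPM in KO-labelled and 604 CPM in WT-labelled cells, a log2 of 0.55 (0.47 to 0.63). Rps19bp1 had 0.72, and Rpl3l had 0.70 from 105 KO-labelled and 15 WT-labelled UMIs. Rps27l, with 0.49, and Rpl41, with 0.37, were the next named by the same rule. The median over the 84 genes was 0.18, with 72 of them above 0, against a median of -0.031 over all genes. In alveolar macrophages none of 85 was higher (background 2.54%) and 1 was lower (background 2.44%), Rpl39l with -1.37 (-2.21 to -0.61), from the few cells described above. In cDC1 none of 83 was higher (background 3.26%) and 1 was lower (background 3.81%), Rpl7l1 with -0.58, from 102 KO-labelled and 122 WT-labelled UMIs.

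**Figure D5:**
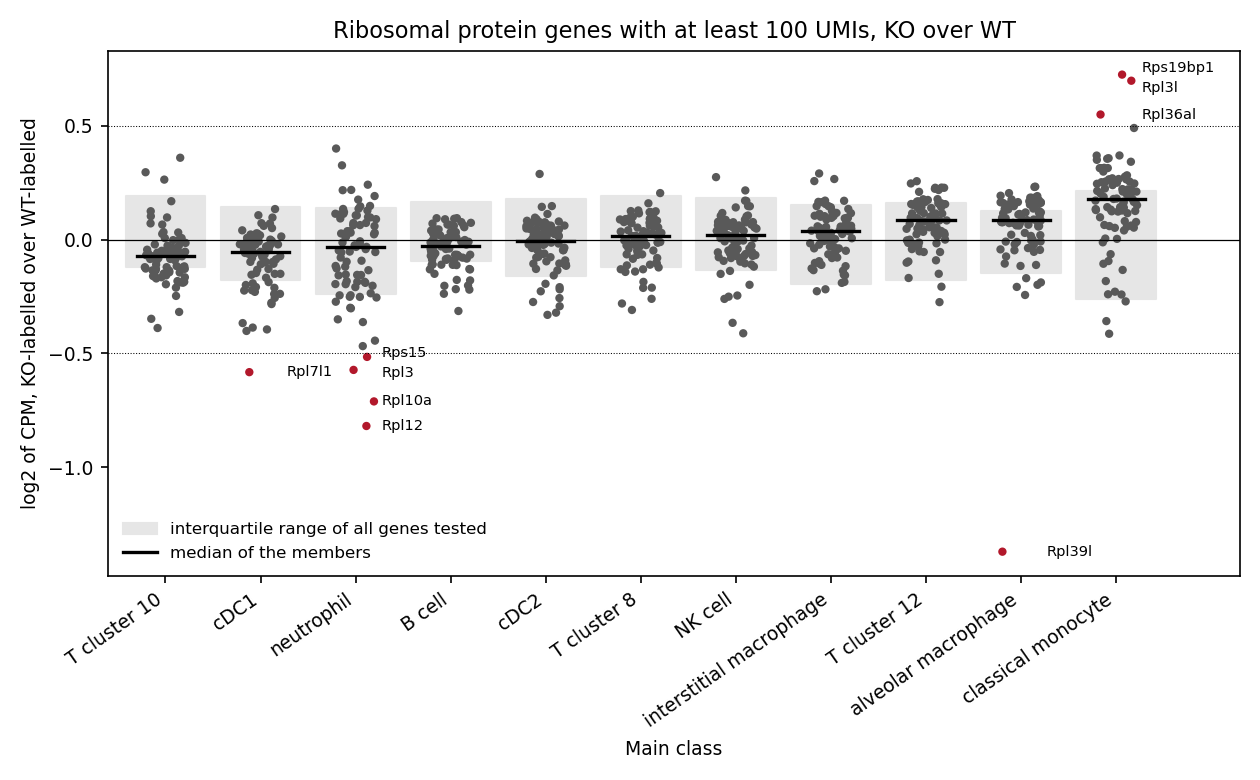
log2 of KO-labelled over WT-labelled CPM (y axis) for each ribosomal protein gene with at least 100 UMIs (points) in the 11 main classes (x axis). Black bars are the medians of these genes, grey boxes the interquartile range of all genes tested, and red points the genes at or past 0.5. The bar is at 0.18 in classical monocytes and between -0.073 and 0.085 in the other classes.

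Rpl12, Rps15, Rpl13a and Rpl41 differed in the same direction in every main class. Of the 81 genes that passed in all 11 classes, 3 had an interval below 0 in each class, against 0.601% of 1997 genes, and 1 had an interval above 0 in each, against 0.601%. An interval narrows with more UMIs and the counts of these sets were not matched, so these shares cannot be compared directly. Rpl12 ran from -0.22 in interstitial macrophages to -0.82 in neutrophils. In B cells it had 1750 CPM in KO-labelled and 2175 CPM in WT-labelled cells, in T cell cluster 8 3860 and 4690 CPM, and in cDC1 1137 and 1501 CPM. Rps15, a small subunit protein, ran from -0.19 in interstitial macrophages to -0.52 in neutrophils. In NK cells it had 705 CPM in KO-labelled and 938 CPM in WT-labelled cells, and in classical monocytes 493 and 657 CPM. Rpl13a, which outside the ribosome takes part in silencing of inflammatory messenger RNAs, ran from -0.14 in T cell cluster 8 to -0.37 in cDC1. In T cell cluster 10 it had 1476 CPM in KO-labelled and 1879 CPM in WT-labelled cells. Rpl41, which encodes a very short peptide, ran from 0.060 in cDC1 to 0.37 in classical monocytes. In alveolar macrophages Rpl41 had 2912 CPM in KO-labelled and 2529 CPM in WT-labelled cells, and in NK cells 2645 and 2350 CPM. A shift shared by all classes cannot be told apart from a difference between the libraries.

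The other highest and lowest genes of the remaining classes stayed within 0.5, and some of them recurred in several classes. In T cell cluster 12, Rps19, which is mutated in an inherited anaemia, had 5272 CPM in KO-labelled and 4415 CPM in WT-labelled cells, a log2 of 0.26, and Rpl35a and Rps20 had 0.25 and 0.23. Rpl35 and Rpl35a both had 0.23 in alveolar macrophages, and Rpl35 had 0.27 in NK cells. In cDC1, Rpl5, which carries the small ribosomal RNA of the large subunit, had 748 CPM in KO-labelled and 984 CPM in WT-labelled cells, a log2 of -0.39, while Rps2 had 0.13. In cDC2, Rps27l had 0.29 and Rpl23a -0.27. In T cell cluster 10, Rps27l had 0.36, Rpl36al 0.26 and Rpl17 -0.32, and in interstitial macrophages Rpl36al had 0.29, Rps27l 0.26 and Rps29 0.17. In B cells Rpl21 had -0.24 and Rps12 -0.22, while Rpl35a had 0.091. In T cell cluster 8 Rps25 had -0.26 and Rpl23 0.12.

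Plaur lies on chromosome 7 of the mouse, as do 14 of the 86 genes. Rps19 and Rps16 lie within 5 Mb of it. Rps19 ran from -0.16 in neutrophils to 0.31 in classical monocytes, and Rps16 from -0.047 in B cells to 0.19 in classical monocytes.

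Genes of ribosome production and of the mitochondrial ribosome were set beside the cytosolic set. For these lists genes with at least 20 UMIs in a class were used. In classical monocytes 35 of 78 mitochondrial ribosomal protein genes were at or above 0.5 and none was at or below -0.5, against 10.8% and 13.9% of all genes. Their median was 0.47, with 72 above 0, against -0.041 over all genes. Mrpl38 had 16.9 CPM in KO-labelled and 4.88 CPM in WT-labelled monocytes, from 179 and 12 UMIs, a log2 of 1.79, and Mrpl46 had 1.35. In alveolar macrophages the median of the same list was -0.0099. The list was not run in the single clusters of classical monocytes. The larger of these had medians of 11234 UMIs in KO-labelled and 9273 UMIs in WT-labelled cells. The part of cluster mix and depth in the monocyte values was not tested.

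In interstitial macrophages 29 of 31 ribosome biogenesis genes were above 0, with a median of 0.31, against -0.028 over all genes. Of the 31, 5 were at or above 0.5, against 7.48% of all genes. None was at or below -0.5, against 11.1%. Dkc1, which modifies ribosomal RNA, had 26.3 CPM in KO-labelled and 15.98 CPM in WT-labelled cells, a log2 of 0.72, and Polr1b, a subunit of RNA polymerase I, had 0.67. Myc, a transcription factor that drives ribosome production, had 26.05 CPM in KO-labelled and 15.4 CPM in WT-labelled cells, a log2 of 0.76 (0.36 to 1.17). The cytosolic ribosomal protein genes there had a median of 0.037. The class joins clusters whose mix differed between the libraries. The cluster with Gpnmb and Trem2 held 301 of 687 KO-labelled cells (43.8%) and 532 of 788 WT-labelled cells (67.5%), and the other, with Ccl12 and the C1q genes, 386 and 256 cells. Within the clusters the biogenesis medians were 0.14 and 0.15, against -0.059 and 0.018 over all genes, with 22 and 27 of 31 genes above 0. At or above 0.5 were 2 and 4 of the 31, near the 5.67% and 11.0% of all genes. Myc then had 1.06 (0.46 to 1.66) in the first cluster and 0.0013 (-0.56 to 0.57) in the other. Dkc1 had 0.52 and 0.59, with both intervals including 0, and Polr1b 0.72 and 0.072. The cytosolic set had medians of 0.16 and 0.047 within them. In NK cells 11 of 31 biogenesis genes were at or below -0.5, against 9.18% of all genes, and 3 were at or above 0.5, against 9.93%. Their median was -0.35, while the cytosolic set had a median of 0.019. Gnl3 and Nop58, nucleolar proteins, both had -0.77 there. With a minimum of 100 UMIs 3 of 13 were at or below -0.5, against 2.91% of all genes, and the median was -0.23. In neutrophils 6 of 24 biogenesis genes were at or below -0.5, against 15.9%, and 2 at or above 0.5, against 7.27%, with a median of -0.29. Of 16 regulators in neutrophils, 4 were at or below -0.5, against 15.9% of all genes, and none at or above 0.5, against 7.27%, with a median of -0.034. The lowest were Trp53, which encodes p53, with -0.80 (-1.41 to -0.19) from 43 KO-labelled and 54 WT-labelled UMIs, and Larp1, which binds the pyrimidine tract, with -0.63. The highest were Mxd1 and Eif4ebp1, a repressor of translation initiation, both with 0.43. These neutrophil values include cells with a UMI of a B, T or NK cell marker. Leaving those cells out moved 4 cytosolic genes inside 0.5 above, but it was not run for these lists.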

How the data were processed

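Per the labels' protocols, the libraries of sorted lung cells used the 10x Genomics 3′ kit v3.1. The authors deposited raw UMI counts, for genes and antibodies, of barcodes already called as cells. Per the file headers these came from Cell Ranger 7.0.0, and the submitters' processing notes name versions 7.1.0 and 7.0.0 and the mm10 build. The sources used here do not name the annotation. Matrices were assigned to genotypes by the library prefix in the sample descriptions. Antibody counts were not used.

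Barcodes under 200 genes or over 10% mitochondrial UMIs were dropped (61 KO-labelled, 80 WT-labelled). Scrublet in scanpy 1.11.5 (expected 8%) removed 454 and 261 doublets. Cells were clustered on 3000 variable genes without ribosomal, mitochondrial, sex-linked, receptor variable genes and Plaur (30 principal components, 15 neighbours, Leiden resolution 1). A name needed 3 markers, each in at least 20% of cells and 2-fold over other cells. Sums of UMIs per class in each library gave CPM and shares, with exact Clopper-Pearson and conditional binomial intervals. Genes compared needed 100 UMIs over both libraries and were called at 0.5 on the log2 scale.

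Named genes were the 5 with most UMIs, the 3 highest and 3 lowest per main class by the interval bound nearest the median of these genes, the 6 with the widest range over classes, the 3 highest and lowest between neutrophil states, the paralogue pairs, those near Plaur, and the 2 highest and lowest of each list. Some genes that these rules name are not reported here. The genes at least 1 log2 off in neutrophils, those at or past 0.5 and those with 1 direction in all classes were added after their values were seen. The genes and lists were chosen with earlier results of these data known. All 86 symbols matched RefSeq on GRCm38.p6. TMM (edgeR 4.0.16) and DESeq2 1.42.0 size factors, other filters, scalings, resolutions and thinning to 1000 UMIs were tried as alternatives. The computations, in R 4.3.3 and Python 3.11.15 (pandas 2.3.3, SciPy 1.17.1, NumPy 2.4.6), were tested on simulated data.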

Additional observations from a re-analysis of the deposited data

How the results depend on the processing

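No paired analysis was possible because each genotype has 1 RNA library. Neutrophils had the lowest and T cell cluster 8 the highest share in both libraries under each alternative that was run. The neutrophil share was 2.99% in KO-labelled and 2.82% in WT-labelled cells as a median over cells, 3.11% and 3.02% without the suffixed copies, 3.15% and 2.97% thinned to 1000 UMIs, 3.10% and 2.94% with doublets kept, 3.08% and 2.86% without cells holding a B, T or NK marker UMI, and 3.18% and 2.95% with clusters weighted alike. The log2 of its KO-labelled over WT-labelled share was then 0.083 as a median, 0.083 thinned, 0.075 with doublets, 0.11 without marker-positive cells and 0.11 with clusters weighted alike. In alveolar macrophages it was 0.12 as a median and 0.077 with doublets. In classical monocytes it was 0.14 as a median, 0.082 thinned, 0.19 with doublets, 0.12 with clusters weighted alike, 0.054 in cluster 17 alone and 0.21 in cluster 20 alone. In plasma cells it turned to -0.080 as a median, -0.013 thinned and -0.020 at resolution 0.5.

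Summed over the main classes, 3 calls were higher and 6 lower, where a gene can count once in each class. At a fold of 0.25 the calls were 35 higher and 43 lower. Of these, 24 of the higher lay in classical monocytes and 14 of the lower in neutrophils. Scaled by the ribosomal protein UMIs the calls were 2 higher and 9 lower. In that setting classical monocytes had 2 higher and 2 lower, and neutrophils 5 lower. The share of all genes at that fold or scaling was not computed, so these counts have no background. Without marker-positive neutrophils 3 calls were lower, 1 of them Rpl3l at -0.51. On the CPM scale 0 core genes were at least 1 log2 above in neutrophils and 73 below. There Rps9 had -0.33 in KO-labelled and -0.47 in WT-labelled cells, Rps27a -0.80 and -1.13, Rpl37 -0.84 and -1.13, and Rps27 -0.96 and -0.9999. The median of the -ps symbols turned to -0.075 in NK cells and -0.10 in T cell cluster 10 with a minimum of 100 UMIs. The cause of these changes was not tested. Cells called as doublets and resolution 0.5 were compared only for classes that shared at least 80% of their cells with the original ones. The marker-positive cells and the single monocyte and interstitial macrophage clusters were chosen after seeing the data. Depth limits the rare copies, and Rpl3l, Rpl39l and Rpl10l rest on few UMIs.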

Other observations

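The 5 symbols with -ps, retrotransposed copies that the symbol rule left out, were rare. Rpl9-ps6 had 58.2 CPM in the KO-labelled and 60.6 CPM in the WT-labelled library, Rpl10-ps3 47.6 and 51.9 CPM, and Rpl36a-ps1 11.0 and 12.7 CPM. Rpl9-ps1 and Rpl36-ps4 stayed under 1 CPM in both. Reads from such copies and from the genes they were copied from may be split between rows.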
